A study of Homo sapiens with 4 samples.

Results

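SLFN11 and SLFN5 are Schlafen genes on human chromosome 17, and their messenger RNA was followed here in A549 cells, an epithelial line from a human lung carcinoma. The genes were taken by symbol from a count table of 15037 genes, so the account covers 2 members. They were chosen by their measured counts in this same contrast, SLFN11 because it was among the largest decreases and SLFN5 beside it. Their levels and fold changes are therefore a description, with no test. The study asked which transcripts differ after depletion of PSME4, a protein that binds the end of the proteasome core and activates it. It has 2 libraries with PSME4 knocked down (PSME4 KD) and 2 in which the knockdown was of RFP, per the labels (control KD), all grown in DMEM and with no further treatment named. How the knockdown was made, and whether a group's libraries stem from different cultures or from 1 clone, the labels do not say, so a p-value here reflects the spread among the libraries at hand, which may be technical.

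Schlafen proteins share an N-terminal fold with nuclease activity in some members, and the longer ones add a C-terminal part that resembles a DNA or RNA helicase. SLFN11 is known for binding replication forks coated with the single-strand binding protein RPA in cells under replication stress, where it blocks further replication, and for cleaving certain transfer RNAs. Its presence makes cancer cells, lung cancer cells among them, more sensitive to topoisomerase and PARP inhibitors and to platinum drugs. SLFN5, another long member, is a mostly nuclear protein that is induced by interferon and has been tied to the control of transcription, and SLFN13, the closest relative of SLFN11 here, cleaves transfer and ribosomal RNAs.

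The Schlafen genes lie side by side. On GRCh38.p14 SLFN5 spans 35243072 to 35273655 of chromosome 17 on the plus strand, SLFN11 spans 35350305 to 35373621 on the minus strand, and SLFN13 spans 35435096 to 35449766 on the minus strand. SLFN5 and SLFN11 are 76.7 kb apart, and SLFN11 and SLFN13 are 61.5 kb apart. Of 7 family members looked for, these 3 were in the table, and SLFN12, SLFN12L, SLFN14 and SLFNL1 were not analysed here. Each member of the pair overlaps 1 other RefSeq gene, SLFN11 a long noncoding RNA and SLFN5 another coding gene, and since it is not given whether the counting used strand, reads there may have been shared or dropped.

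The coding sequences are shown first because they decide which counts can be told apart. In GENCODE 29 the coding sequence of SLFN11 (2703 bases) was 87.2% identical to that of SLFN13 and 67.1% identical to that of SLFN5 over the aligned bases. SLFN11 and SLFN13 were identical without a break for 516 bases, from base 1438 to base 1953 of both coding sequences, while the longest run shared by SLFN11 and SLFN5 was 41 bases. The lines below show the last 60 bases of that run and the 60 bases after it, from base 1894 to base 2013 of SLFN11, with the aligned bases of the other genes 5′ to 3′ and in capitals wherever they differ from SLFN11 or are inserted.
SLFN11: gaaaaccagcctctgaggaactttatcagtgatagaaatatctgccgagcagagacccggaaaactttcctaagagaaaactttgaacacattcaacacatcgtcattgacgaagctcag
SLFN13: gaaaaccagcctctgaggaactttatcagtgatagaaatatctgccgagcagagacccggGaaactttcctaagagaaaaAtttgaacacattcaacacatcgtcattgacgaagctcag
SLFN5: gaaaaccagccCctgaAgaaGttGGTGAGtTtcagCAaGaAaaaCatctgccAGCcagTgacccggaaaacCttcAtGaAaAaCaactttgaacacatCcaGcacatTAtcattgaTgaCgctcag
SLFN13 differed from SLFN11 at 0 of the first 60 bases and at 2 of the last 60, and SLFN5 differed at 25 bases and had 6 more. Of the windows of 75 bases in the longest SLFN11 transcript, 9.61% also occurred exactly in SLFN13 and 0 of 4956 occurred in SLFN5. The labels name neither the read length nor the handling of reads that match several genes. SLFN5 counts were separable from those of SLFN11 at this length, and SLFN13 counts were not fully so.

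The upstream sequence of SLFN11 is shown because ETS factors, whose levels are given further on, bind a short core that recurs in it. It runs for 250 bases up to the transcription start, chr17:35373622-35373871 on the minus strand of GRCh38.p14 (RefSeq), printed 5′ to 3′ as transcribed.
SLFN11 upstream: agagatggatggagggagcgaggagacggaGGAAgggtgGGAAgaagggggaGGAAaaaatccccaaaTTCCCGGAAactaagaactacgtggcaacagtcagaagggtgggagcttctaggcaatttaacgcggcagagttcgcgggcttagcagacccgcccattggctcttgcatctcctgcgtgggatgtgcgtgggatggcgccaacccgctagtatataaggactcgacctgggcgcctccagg
Capitals mark GGAA, the core of ETS motifs, and TTCNNNGAA, a palindrome found in cytokine-responsive promoters that is not tied here to any factor named further on, on either strand. GGAA occurred at 5 places, of which the 2 nearest to the start lie on opposite strands inside the single TTCNNNGAA match, at bases -182 to -174 from the start. At least 5 GGAA were found in 18.6% of 35116 promoter windows of this length, and 92.7% held at least 1. TTCNNNGAA was found in 6.57% of the windows. The window had 57.6% GC, against a median of 58% over all windows. These matches describe letters only.

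SLFN11 mRNA was several times lower in PSME4 KD cells. The counts were 294 and 455 in control KD 1 and 2, and 79 and 93 in PSME4 KD 1 and 2. Scaled to library size with TMM factors these were 25.4 and 39.1 CPM (counts relative to library size) in control KD and 5.19 and 6.10 CPM in PSME4 KD. Both PSME4 KD libraries lay far below both control KD libraries, and the groups did not overlap; libraries that did not overlap and were lower in PSME4 KD were seen for 28.4% of the 13497 genes tested. The mean went from 32.3 ± 9.68 CPM (SD, n = 2) to 5.65 ± 0.646 CPM, so that 17.5% of the control level was left. The log2 fold change of PSME4 KD over control KD, from edgeR fitted across all genes, was -2.51 (SE 0.26), and the authors' deposited table gives 2.51 for control KD over PSME4 KD. In bulk RNA, fewer cells that express a gene and less of its RNA per cell cannot be told apart.

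The control KD libraries differed between themselves, SLFN11 being 1.54-fold higher in control KD 2 than in control KD 1, while the PSME4 KD libraries differed 1.18-fold. The smallest ratio between a control KD and a PSME4 KD library was 4.17 and the largest was 7.54. The smallest was larger than the difference within either group. SLFN11 was chosen for its decrease in these libraries, so this comparison and the ranks that follow are a description. By size the decrease ranked at place 28 of 13497 tested genes, and among 4143 genes whose control level was within 2-fold of that of SLFN11 it ranked at place 4. The place over all genes moved with the filter on low counts. It was 10 of 11100 genes with at least 50 counts in 2 libraries, and 92 of 15037 with no filter. Counting error alone was 11.3% and 10.4% of the count in the PSME4 KD libraries, as the square root of the count, and 5.83% and 4.69% in control KD.

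**Figure D1:**
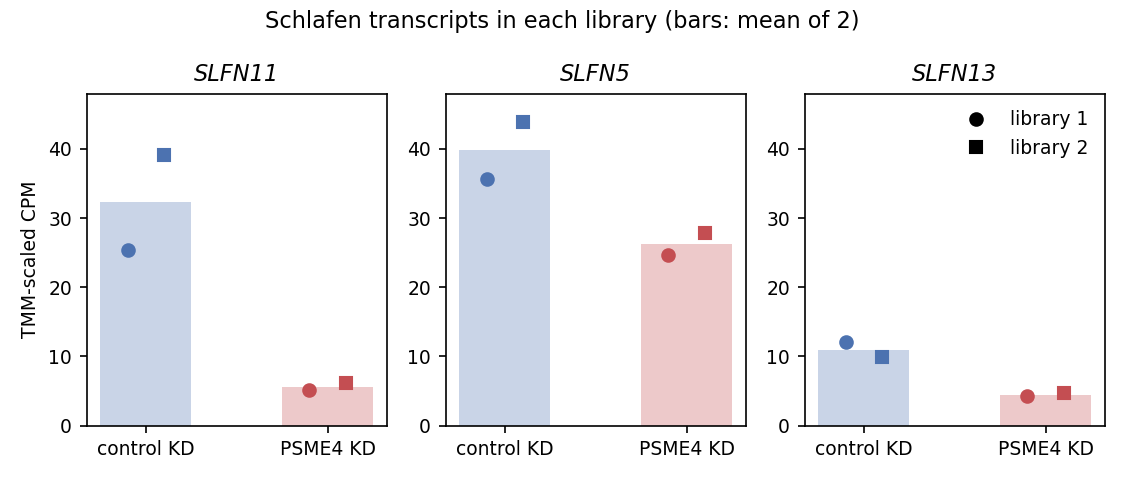
TMM-scaled CPM of SLFN11, SLFN5 and SLFN13 in each library on a shared linear axis, with circles for library 1, squares for library 2 and bars for the mean of 2. SLFN11 went from 25.4 and 39.1 CPM to 5.19 and 6.10 CPM, and SLFN5 from 35.6 and 43.9 CPM to 24.7 and 27.9 CPM.

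SLFN5 mRNA was also lower in PSME4 KD cells, by much less. The counts were 412 and 511 in control KD 1 and 2, and 376 and 425 in PSME4 KD 1 and 2, from deeper PSME4 KD libraries. In CPM these were 35.6 and 43.9 in control KD and 24.7 and 27.9 in PSME4 KD. The groups did not overlap, but 28.4% of all tested genes also had groups that did not overlap and were lower in PSME4 KD. The lowest control KD library was only 1.28-fold above the highest PSME4 KD library, close to the 1.23-fold difference between the control KD libraries. The mean went from 39.8 ± 5.86 CPM (SD, n = 2) to 26.3 ± 2.26 CPM, with 66.1% left and a log2 fold change of -0.60 (SE 0.21). The decrease ranked at place 1420 of 13497 genes, and at place 338 among 4163 genes with a control level within 2-fold of that of SLFN5.

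Log2 fold changes tended to be higher in transcripts of higher GC content, with Spearman's rho of 0.40 across 13154 genes, which are not independent replicates. Between control KD 2 and control KD 1 the same coefficient was -0.49. The longest SLFN5 transcript has 39.1% GC, and the 1082 tested genes within 1 percentage point of it had a median log2 fold change of -0.23, against -0.0021 over all genes. SLFN11 has 43.8% GC, where the median of 1181 such genes was -0.093. With the libraries corrected for GC content the log2 fold change of SLFN5 was -0.35 (SE 0.18) and that of SLFN11 was -2.40 (SE 0.22). The decrease of SLFN5 then ranked at place 2608 of 13497 genes and that of SLFN11 at place 33. The SLFN5 log2 fold change without control KD 2 was -0.43, and without control KD 1 it was -0.74. For SLFN11 the corresponding values were -2.16 and -2.79.

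The ratio of both genes within a library needs no scaling between libraries. There were 0.714 and 0.890 SLFN11 counts per SLFN5 count in control KD 1 and 2, and 0.210 and 0.219 in PSME4 KD 1 and 2. The mean ratio was 3.74-fold higher in control KD, so SLFN11 decreased more than SLFN5 in these libraries. Per kb of the longest transcript, a scale on which levels of genes can be compared, SLFN11 stood at 5.06 and 7.78 CPM per kb in control KD and SLFN5 at 3.37 and 4.15 CPM per kb. In PSME4 KD the order was turned, with SLFN11 at 1.03 and 1.21 CPM per kb and SLFN5 at 2.33 and 2.63 CPM per kb. Of the family members measured, SLFN13 was the lowest in every library, at 1.42 and 1.17 CPM per kb in control KD and 0.512 and 0.550 CPM per kb in PSME4 KD. This order rests on the longest GENCODE transcript (10591 bases for SLFN5, 5030 for SLFN11 and 8469 for SLFN13), which need not be the form that A549 cells use.

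SLFN13, the family member outside the pair, fell in PSME4 KD. The counts were 139 and 115 in control KD 1 and 2, and 66 and 71 in PSME4 KD 1 and 2, or 12.0 and 9.89 CPM against 4.34 and 4.66 CPM. It passed edgeR's quasi-likelihood test (log2 fold change -1.28, SE 0.28, Benjamini-Hochberg adjusted p = 0.00465), as did 10.6% of the tested genes in either direction. The control KD libraries did not rank alike for the relatives, as control KD 2 held more SLFN11 than control KD 1 and less SLFN13. There were 2.12 and 3.96 SLFN11 counts per SLFN13 count in control KD, and 1.20 and 1.31 in PSME4 KD. Because of the shared 516 bases the SLFN13 decrease may include reads of SLFN11. The SLFN11 counts, the level left in PSME4 KD and the ratios with SLFN11 may likewise include reads of SLFN13. The size of these shares was not tested. When any 1 library was dropped SLFN13 no longer passed (adjusted p between 0.0621 and 0.174, edgeR), with log2 fold changes between -1.41 and -1.14.

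Most genes around the pair did not pass the test. Besides the pair, 16 genes of the table lay within 1 Mb, and 15 of them were tested. Of these 2 passed by edgeR, or 13.3% against 10.6% of all tested genes, SLFN13 and TAF15, both lower. The median log2 fold change of the 15 was 0.053, against 0.11 for the 819 tested genes of chromosome 17. TAF15, which encodes an RNA-binding protein of the FET family, went from 94.6 and 67.2 CPM to 52.5 and 40.0 CPM (log2 fold change -0.81, SE 0.21, adjusted p = 0.0161 by edgeR). Its groups did not overlap, but of all tested genes 28.4% had groups that did not overlap and were lower in PSME4 KD. The nearest tested gene on the SLFN5 side was NLE1, a ribosome assembly factor 101 kb away, at 0.62 (SE 0.25, adjusted p = 0.114 by edgeR). The nearest beyond the Schlafen genes on the other side was the noncoding SNHG30, at 0.53 (SE 0.28, adjusted p = 0.219 by edgeR). Farther out on the SLFN5 side, the DNA repair genes RAD51D (0.19, SE 0.23) and LIG3 (0.56, SE 0.20) did not pass either. TAF15 passed in none of the fits with 1 library left out, with adjusted p between 0.0722 and 0.386 by edgeR.

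**Figure D2:**
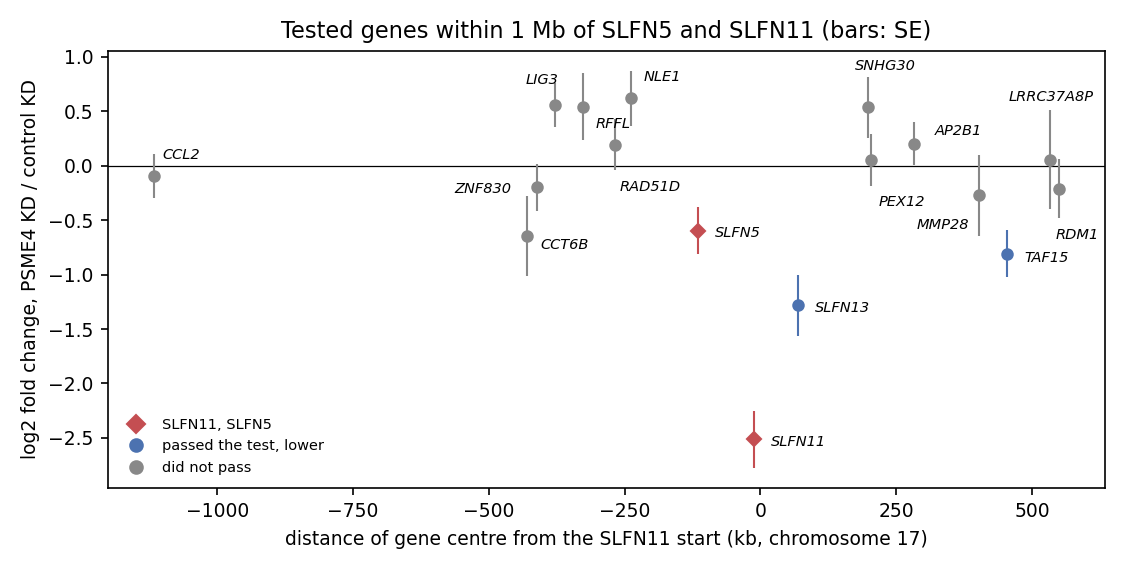
Log2 fold change (PSME4 KD over control KD, bars are SE) of the tested genes within 1 Mb of the pair against the distance of the gene centre from the SLFN11 start in kb. SLFN11 lies at -2.51, SLFN13 and TAF15 are the other genes marked as lower, and the genes next to the Schlafen cluster on both sides lie above 0.

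Genes that SLFN11 works with at the replication fork were mostly not called. Of 20 tested fork genes 2 fell and 0 rose, or 10% called against 10.6% of all tested genes (edgeR), and the median log2 fold change was -0.028. Those that fell encode subunits of RPA, the single-strand binding complex that SLFN11 binds. RPA2 went from 66.3 and 57.0 CPM to 34.2 and 34.3 CPM (log2 fold change -0.85, SE 0.20, adjusted p = 0.00847 by edgeR), and RPA3 went from 370 and 305 CPM to 223 and 196 CPM (-0.69, SE 0.20, adjusted p = 0.0236 by edgeR). The largest RPA subunit, RPA1, did not pass (0.29, SE 0.19). DHX9, an RNA helicase reported to associate with SLFN11, was at -0.25 (SE 0.19), and the licensing factor CDT1 and the replicative helicase subunit MCM3 were at -0.016 (SE 0.37) and 0.16 (SE 0.20). RPA2 and RPA3 also passed once GC content was corrected (-0.87 and -0.65), but not with any 1 library dropped.

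Of 12 tested genes of the ATR-CHEK1 replication checkpoint, which acts beside SLFN11 when forks stall, 0 passed by edgeR, by DESeq2 or by limma voom. Over all tested genes edgeR called 10.6%. Before adjustment 4 of the 12 had an edgeR p under 0.05, as did 3530 of all 13497 tested genes. The smallest p was that of ETAA1, an activator of ATR, at -0.54 (SE 0.20, adjusted p = 0.0756 by edgeR). ATR itself was at -0.072 (SE 0.20) and CHEK1 at -0.26 (SE 0.20). The list median was -0.28, and -0.15 after the GC correction. Of 10 tested genes for targets of drugs whose action SLFN11 modulates, 0 passed by edgeR and limma voom with the main filter. The edgeR share over all tested genes was again 10.6%. By DESeq2 1 of the 10 passed, and 1 by edgeR with the filter at 50 counts. Before adjustment 2 of the 10 had an edgeR p under 0.05, beside the 3530 of 13497 over all genes. The topoisomerase TOP2B had the smallest p, at -0.56 (SE 0.19, adjusted p = 0.0570 by edgeR), while TOP1 was at -0.19 (SE 0.20), TOP2A at -0.21 (SE 0.21) and PARP1 at 0.35 (SE 0.19).

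Among 12 genes of ribosome stalling and the stress kinase response, the route by which cleavage of transfer RNA by SLFN11 is reported to reach cell death, 1 fell and 0 rose by edgeR, or 8.33% against 10.6% of all tested genes. This was JUN, an AP-1 transcription factor and target of the stress kinases, which went from 43.8 and 54.1 CPM to 25.2 and 11.6 CPM. Its log2 fold change was -1.41 (SE 0.26, adjusted p = 0.000927 by edgeR), and it kept its call without PSME4 KD 1 (-2.07, adjusted p = 0.0257 by edgeR). It did not pass without PSME4 KD 2 (-0.93, adjusted p = 0.0939), control KD 1 (-1.56, adjusted p = 0.0994) or control KD 2 (-1.24, adjusted p = 0.126). The sensors of stalled ribosomes GCN1 and MAP3K20 were at 0.15 (SE 0.20) and 0.048 (SE 0.20), and the kinase EIF2AK4 at 0.51 (SE 0.22) did not pass.

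Schlafen genes are induced by interferon, so its signalling genes were read beside them. Of 10 tested genes of type I interferon signalling 0 passed by edgeR, by DESeq2 or by limma voom, while edgeR called 10.6% of all tested genes. When only genes with at least 50 counts in 2 libraries were tested, 1 of the 10 was lower by edgeR. Before adjustment 2 of the 10 had an edgeR p under 0.05, as did 3530 of all 13497 tested genes. The receptor chain IFNAR1 had the smallest p (-0.59, SE 0.20, adjusted p = 0.0581 by edgeR), and the transcription factors STAT2 and IRF9, which bind interferon-responsive promoters, were at 0.37 (SE 0.22) and 0.11 (SE 0.27). Of 26 other tested interferon-stimulated genes 1 fell and 0 rose by edgeR, or 3.85% against 10.6% of all tested genes, the median being -0.15. SAMD9, an antiviral factor, was the gene that fell (-0.98, SE 0.29, adjusted p = 0.0287 by edgeR), and it did not pass by DESeq2 (adjusted p = 0.0532) or with GC content corrected (-0.64, adjusted p = 0.103 by edgeR). It was at -0.45 without control KD 2 (adjusted p = 0.373 by edgeR) and at -1.36 without control KD 1, and did not pass with any 1 library dropped.

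Of 13 tested genes in a list of chromatin regulators and ETS factors, some of them reported to act on SLFN11, 1 rose and 1 fell by edgeR. This was 15.4% against 10.6% of all tested genes, so their share was close to that of genes at large. ETS2, a transcription factor of the ETS family, whose GGAA core is marked in the upstream sequence, rose from 57.6 and 76.6 CPM to 160 and 165 CPM (1.28, SE 0.20, adjusted p = 0.000172 by edgeR). It did not pass without control KD 1 or PSME4 KD 1 (adjusted p = 0.0752 and 0.0749 by edgeR). ETS1 of the same family was at -0.013 (SE 0.23), and whether ETS2 or ETS1 acts on SLFN11 in these cells was not tested. The deacetylase HDAC2 went from 111 and 102 CPM to 68.9 and 69.6 CPM (-0.62, SE 0.19, adjusted p = 0.0396 by edgeR), and did not pass with GC content corrected (-0.37, adjusted p = 0.192 by edgeR) or with any 1 library dropped. EZH2, the histone methyltransferase that silences SLFN11 in small cell lung cancer, was at 0.0096 (SE 0.20), with all 4 libraries between 40.8 and 46.9 CPM. Its partner SUZ12 was at -0.62 (SE 0.22) and did not pass.

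Of 8 tested genes reported downstream of SLFN5, 1 rose and 0 fell by edgeR, or 12.5% against 10.6% of all tested genes, again close to genes at large. CDH2, which encodes N-cadherin, went from 43.5 and 65.9 CPM to 106 and 114 CPM (1.01, SE 0.21, adjusted p = 0.00315 by edgeR), and did not pass without control KD 1 or PSME4 KD 1 (adjusted p = 0.108 and 0.145 by edgeR). ZEB1, a transcription factor of the epithelial to mesenchymal change that SLFN5 has been reported to repress, was at -0.10 (SE 0.22), with 22.3 and 30.3 CPM in control KD and 25.6 and 23.4 CPM in PSME4 KD. VIM and CDH1 were at 0.17 (SE 0.19) and 0.18 (SE 0.20). Over these 8 lists edgeR called 7 of 111 tested genes, or 6.31% against 10.6% of all tested genes. It called 10 with the filter at 50 counts, 8 with the replicate block and 5 with GC content corrected. With a library dropped it called 0 without the first and 2 without the second control KD library, and 1 and 2 without the corresponding PSME4 KD library.

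**Figure D3:**
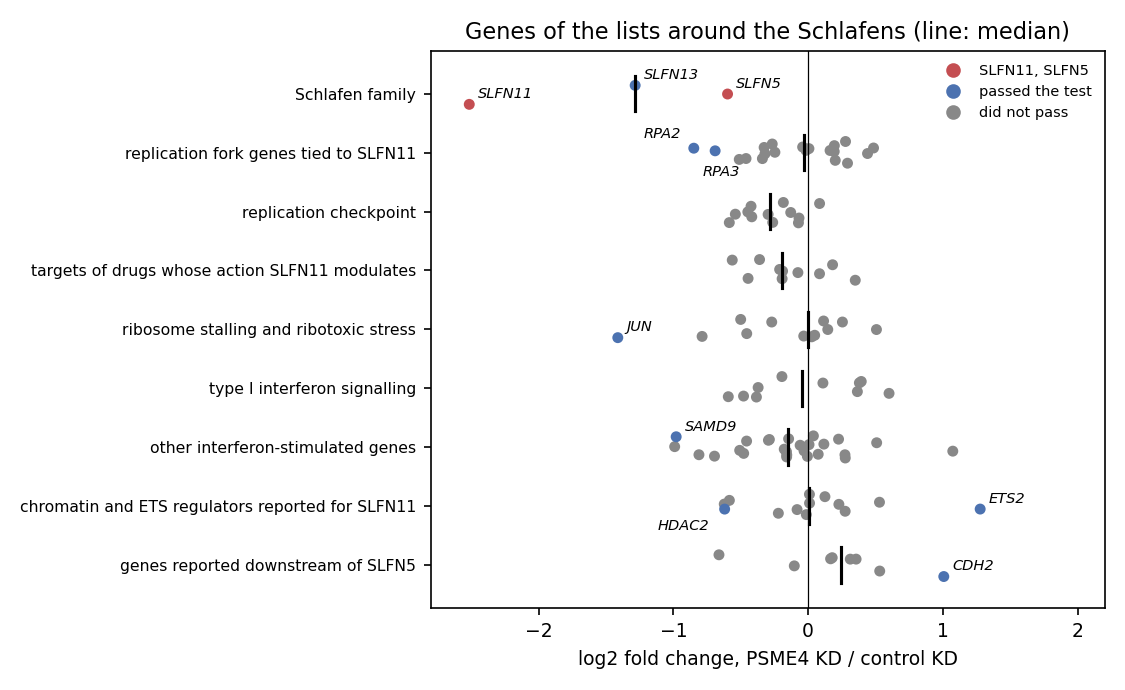
Log2 fold change (PSME4 KD over control KD) of each tested gene of the lists, 1 point a gene, with a line at the list median; points are spread vertically only to separate them. SLFN11 is drawn at -2.51, and as it was chosen for its decrease, its place below the other lists is no result. JUN at -1.41 is the lowest gene of the other lists shown.

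The genes whose values over the 4 libraries were most like those of SLFN11, by the distance between centred log2 CPM among 10312 genes averaging 5 CPM or more, were CDH19, UPK1B, CXCR4, PAK3 and CLTRN, at distances of 0.27 to 0.61. CDH19, a cadherin, was the closest, and like SLFN11 it was higher in control KD 2 (16.0 CPM) than in control KD 1 (8.22 CPM), with 1.64 and 1.90 CPM in PSME4 KD. The other 4 differed little between the control KD libraries; PAK3, a kinase, had 22.2 and 23.4 CPM there and 5.19 and 4.40 CPM in PSME4 KD. For SLFN5 the closest were AKIRIN1, LIPA, SEPTIN7P2, CFAP69 and TXNDC9, at distances of 0.053 to 0.093 and log2 fold changes between -0.65 and -0.53. At each of the 5 places the distance was larger for SLFN11 than for SLFN5. SLFN11 was chosen for a decrease that few genes reach, so larger distances are not read as a trait of it. Such likeness over 4 libraries is a description.

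The knockdown and the cells were checked in the same libraries. PSME4 mRNA was at 158 and 180 CPM in control KD and at 75.3 and 85.1 CPM in PSME4 KD (log2 fold change -1.08, SE 0.20, adjusted p = 0.000855 by edgeR), so 47.5% was left, a smaller decrease than that of SLFN11; without either control KD library or PSME4 KD 1 it did not pass (adjusted p = 0.0522 to 0.146, edgeR). The libraries held 11766371 to 15208588 counts, the control KD libraries being shallower. All 8 epithelial and A549 markers were measured, among them KRT18 at 2820 to 4119 CPM and EPCAM at 5.42 to 7.88 CPM. Of these 8, 0 passed by edgeR, against 10.6% of all tested genes, 0 by limma voom and 1 by DESeq2. Before adjustment 1 of the 8 had an edgeR p under 0.05, as did 3530 of all 13497 tested genes. The leukocyte markers summed to 30.9 to 35.0 CPM in control KD and 41.2 to 41.8 CPM in PSME4 KD, most of it CD68, with PTPRC and CD3E not analysed here and LYZ at 0 counts in control KD 1. The fibroblast markers summed to 17.2 to 21.2 CPM and 26.4 to 28.6 CPM, COL1A1 being higher and PDGFRA lower by edgeR and neither by DESeq2. Of 4 endothelial markers 0 were analysed here. Their part in the Schlafen values was not tested.

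**Figure D4:**
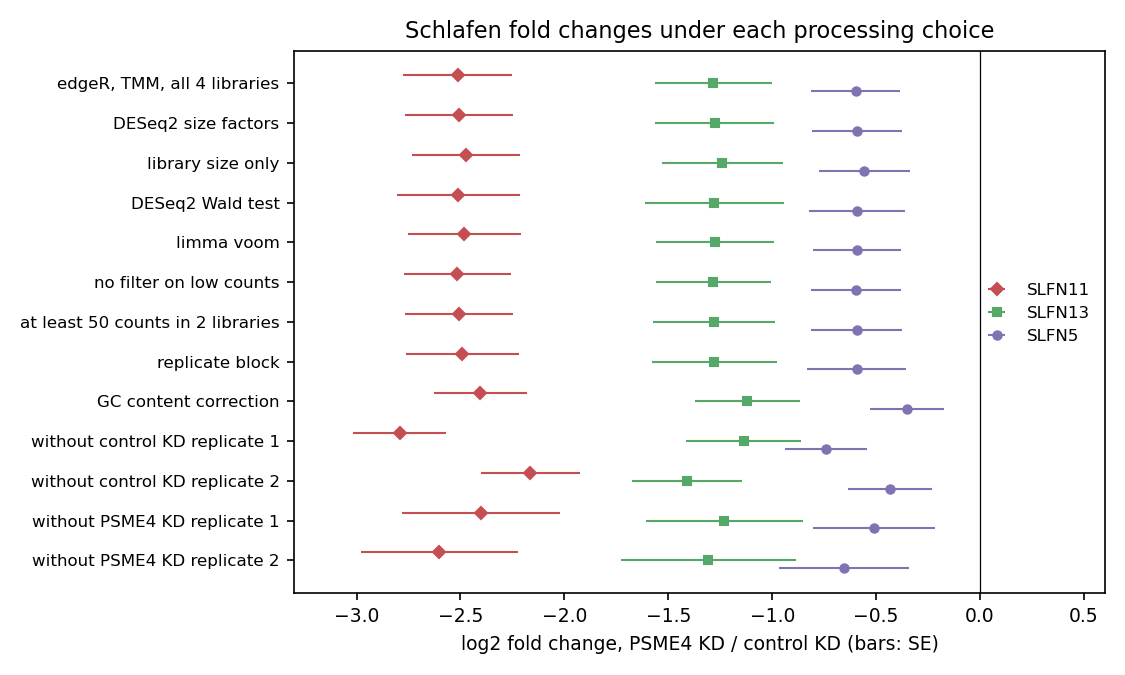
Log2 fold change (PSME4 KD over control KD, bars are SE) of SLFN11, SLFN13 and SLFN5 under each processing choice and with each library left out. SLFN11 stays between -2.79 and -2.16 and SLFN5 between -0.74 and -0.35, and the ranges of the members do not meet.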

How the data were processed

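Poly(A) RNA of A549 cells went into Lexogen SENSE libraries, per the labels' protocols. The submitters' processing notes name hg38 and the tools cutadapt, STAR and DESeq2; their versions, the counter, the use of strand and the gene annotation were not given in the sources used here. Whole-number counts per gene, as deposited, were analysed. The table also holds signal values (counts divided by a size factor, per the file headers), log2 values and the p-values of the authors' own comparison; of these only the deposited log2 fold changes were read. Every row had a count of at least 6 in some library, so a filter had been applied before deposit.

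Counts were fitted in R 4.3.3 with edgeR 4.0.16 (filterByExpr, TMM, glmQLFit and glmQLFTest, group as the only term, 2 residual degrees of freedom), which tested 13497 genes, adjusted by Benjamini-Hochberg at 0.05. An SE is the log2 value over the root of its F statistic. Steps were tested on simulated data. Each library counted as 1 replicate; the titles give group and number. Alternatives were DESeq2 1.42.0 and its size factors, library size only, limma 3.58.1 voom, no filter, a minimum of 50 counts in 2 libraries, a replicate block, a lowess (span 0.4) correction for GC content of the longest GENCODE 29 transcript, and each library left out. RefSeq gave the positions (GRCh38.p14; hg38 is GRCh38), and coding sequences were compared by global alignment. Named genes are the family, neighbours within 1 Mb that passed plus the nearest, list genes that passed or had the smallest p, and the 5 genes nearest in pattern; other genes named were chosen for their known role after their values were seen. A gene of the lists is not reported here by name, and list counts include it. Members and lists were chosen with earlier results of these data known.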

Additional observations from a re-analysis of the deposited data

How the results depend on the processing

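SLFN11 lay between -2.79 and -2.16 on the log2 scale under all 12 alternatives, and SLFN5 between -0.74 and -0.35. Neither gene had groups that overlapped, so leaving out a library could not turn the direction. The GC correction moved SLFN5 from -0.60 to -0.35, by more than the SD between its libraries. Leaving out 1 library gave 43 to 281 genes called over all genes against 1426, 0 to 2 called list genes against 7, 0 called neighbours against 2, SLFN13 at -1.41 to -1.14 and PSME4 at -1.17 to -0.97, SLFN13 losing its call each time. An arm then held a lone library that is assumed to vary like the other group. With the replicate block SLFN11 was at -2.49, SLFN5 at -0.59 and SLFN13 at -1.28, and 1554 genes were called. The deviations of same-numbered libraries correlated at -0.043 over 8748 genes, and the labels do not say that a number marks a shared batch. Library size alone called 853 genes higher and 764 lower, against 616 and 810. With 2 libraries a group and 79 and 93 SLFN11 counts in PSME4 KD, depth limits how closely the remaining level is known.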
